A study of Rattus norvegicus with 27 samples.

Results

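Punches of the cerebellar interpositus nucleus (IP) were ordered by the expression of 5 genes of the meninges, and the 9 punches with the highest score were compared with the 9 with the lowest score, which together are 18 of the 27 punches of the series. The 5 genes were Dcn, Lum, Col1a2, Col3a1 and Slc6a13. The score of a punch is the mean over these genes of the log2 of CPM plus 0.5, where CPM is the count of a gene scaled to a common library total, after the mean of each gene over the 27 punches had been set to 0. The classes are called high-score and low-score here because the score, and not a dissection record, chose them.

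Each punch came from 1 Long-Evans rat killed at postnatal day 70. Rats of the no treatment (NT) groups were reared normally, and rats of the limited bedding (LB) groups were reared from postnatal day 2 to 9 over wire mesh with little nesting material. The series holds 15 males, of which 8 had LB and 7 NT rearing, and 12 females, of which 7 had LB and 5 NT rearing. Pups of all groups were cross-fostered at postnatal day 2, and no allele or drug differs between the groups. Total counts per punch ranged from 11836684 to 24169170. The Y-linked gene Eif2s3y lay between 28.6 and 118 CPM in males and at or below 0.163 CPM in females, as their labels say.

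The meninges are the membranes around the brain. Fibroblasts of the pia and arachnoid make most of their collagen matrix, the cells of the arachnoid barrier seal them with tight junctions, and border macrophages, which carry MHC class II molecules, live among them. Over the cerebellum the pia follows the folia, while the IP lies deep in the white matter. Meningeal fibroblasts are also a known source of retinoic acid and of insulin-like growth factor 2 in the brain. In bulk tissue fewer cells of a type and less RNA per cell cannot be told apart.

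In the high-score class the score ran from 0.202 to 0.518 (median 0.440) and in the low-score class from -0.791 to -0.0815 (median -0.326). The mean score of the classes differed by 0.755, a value in log2 units that is called the class gap below. The last punch inside the high-score class was LB male replicate 3 at 0.202, and the first outside it was NT female replicate 2 at 0.182. The first punch inside the low-score class was NT female replicate 5 at -0.0815, and the last outside it was LB male replicate 7 at -0.0747.

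**Figure D1:**
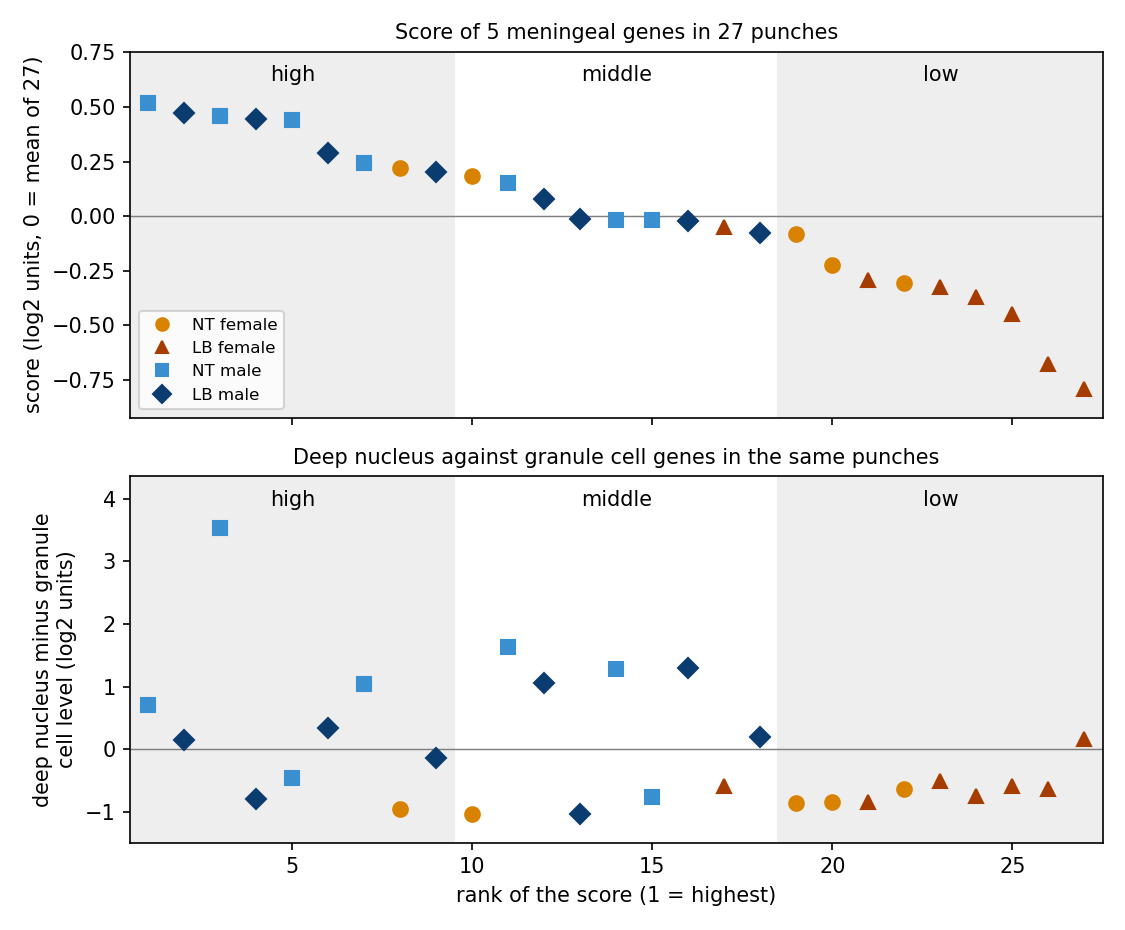
Score (upper panel) and mean log2 level of deep nucleus genes minus that of granule cell genes (lower panel, centred) for the 27 punches in order of the score, with grey bands over the high-score and low-score classes. Points are single punches, and 8 of the 9 high-score punches but 0 of the 9 low-score punches came from males.

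The classes fell almost wholly along the labels of sex. The high-score class held 4 NT males, 4 LB males and 1 NT female, and the low-score class held 3 NT females and 6 LB females. Sex and score can therefore not be told apart between the classes. The first digits of the sample titles, which the labels do not explain, split with them as well, since the low-score class held 3 title prefixes and the high-score class 6 others. The score averaged 0.172 ± 0.215 (SD, n = 8) in LB males and -0.421 ± 0.249 (SD, n = 7) in LB females, a difference of 0.594 (p = 6.22e-04 by exact permutation, two-sided, and 0.00249 after adjustment for 4 comparisons). The NT males averaged 0.254 ± 0.225 (SD, n = 7), and the mean of the NT females was -0.0412 ± 0.235 (SD, n = 5), a difference of 0.295 that did not pass the threshold (exact permutation test, p = 0.0530, adjusted p = 0.0707). LB females lay 0.380 below NT females (exact permutation test, p = 0.0278, adjusted p = 0.0556), and LB males lay 0.081 below NT males (exact permutation test, p = 0.480, adjusted p = 0.480). The permutations took each punch as a unit and took no account of title prefix. No prefix was shared between the groups, so these p-values do not separate the labels from what the prefixes stand for.

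Between the classes the 5 score genes are given as levels only, since their values chose the classes. Dcn, which codes for the small proteoglycan decorin, had 14.04 to 26.8 CPM (median 17.7) in the high-score and 7.71 to 11.7 CPM (median 9.54) in the low-score class. Lum, which codes for the related lumican, had 5.48 to 15.6 CPM (median 8.79) against 1.89 to 5.38 CPM (median 4.10). Col3a1, a chain of fibrillar collagen, had 36.2 to 56.1 CPM (median 42.0) against 11.4 to 24.7 CPM (median 19.9). For these 3 genes the classes did not overlap. Slc6a13, a transporter of GABA and taurine in the pia, had 9.47 to 19.3 CPM (median 12.3) against 6.15 to 12.7 CPM (median 9.50), and 4 of the 9 high-score punches lay above every low-score punch.

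Col1a2, the second chain of type I collagen, was close to undetected in every punch. It had at most 3 counts in a high-score, 4 in a middle and 1 in a low-score punch, and 0 counts in 16 of the 27. Its partner chain Col1a1 was counted at a mean of 56.0 CPM. The deposited annotation (rn6) lists Col1a2 at 2 places on chromosome 4, at chr4:29529854-29564781 and chr4:31534225-31569152, each with 52 exons that add up to 4465 bases. How reads that align to several places were counted is not given in the sources used here, and the part of the repeated locus in the low counts was not tested. Without Col1a2 the score chose the same 9 and 9 punches.

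Across all other genes, 63 of 11642 tested passed an adjusted p of 0.05 as higher in the high-score class (0.541% of genes tested, quasi-likelihood test of edgeR, Benjamini-Hochberg adjusted), and 0 passed as lower (0%). With title prefix as a random block, fitted with limma-voom at an estimated correlation of 0.275, 0 genes were called. An unadjusted p under 0.05 was met by 2105 genes without the block and by 895 with it. DESeq2 called 369 higher and 83 lower, and limma-voom 39 higher and 1 lower. For 12 genes (0.103%) every high-score punch lay above every low-score punch, and for 1 gene (0.00859%) every one lay below. That gene was Pank4, a member of the pantothenate kinase family that was named after its values were seen, with 46.9 to 55.4 CPM in the high-score and 55.5 to 64.4 CPM in the low-score class (log2 difference -0.16 ± 0.07 SE, adjusted p = 0.21). The classes were chosen from the same punches, so these p-values say how a gene went with the score and are no test of a treatment.

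The number of genes called rested on single punches. Without NT female replicate 1, the single female of the high-score class, edgeR called 823 genes, 481 higher and 342 lower. With the other 17 punches left out in turn it called between 21 and 155. With sex and rearing as terms in the model 0 of 11642 genes were called by edgeR and 56 had an unadjusted p under 0.05. Since no male was in the low-score class, the difference between the classes in that model rests on NT female replicate 1 against the 9 low-score females. The same holds for every list value given below for the classes with sex and rearing terms. The score without Dcn or without Col3a1 moved 2 or 3 punches out of the classes, and 0 genes were then called by edgeR (1033 and 1858 with an unadjusted p under 0.05).

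**Figure D2:**
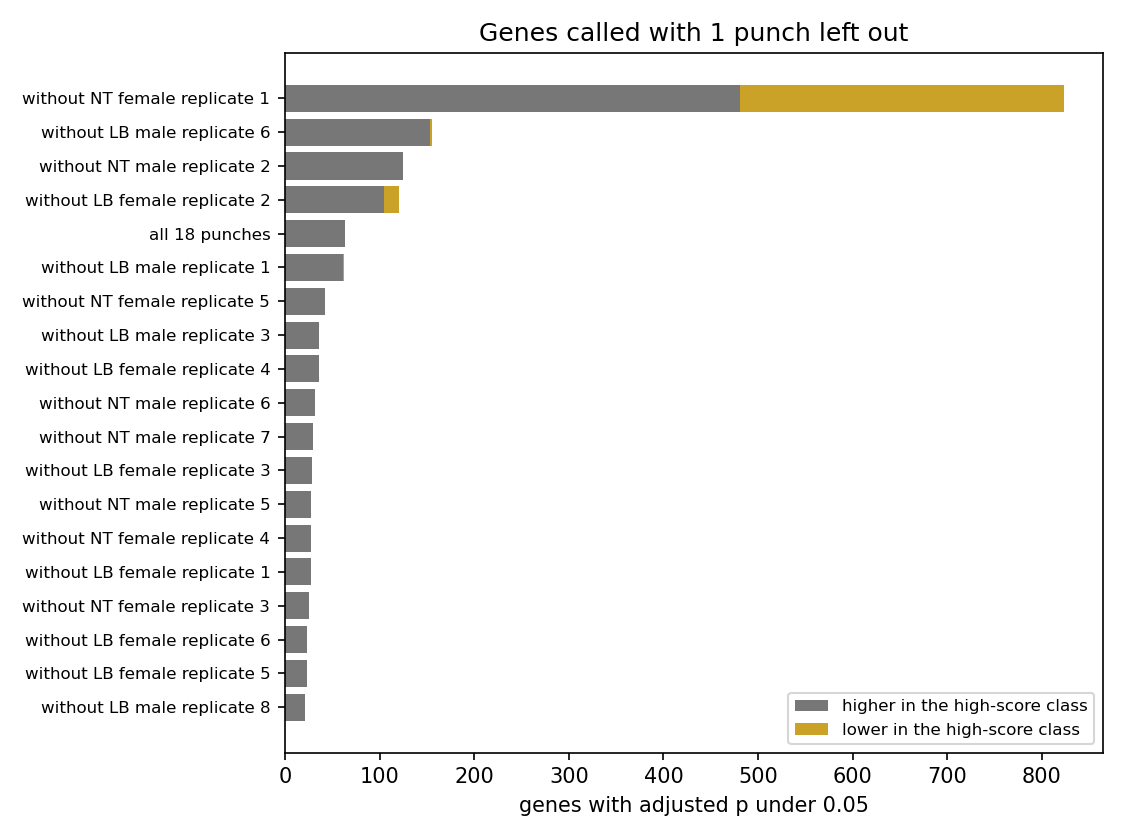
Number of genes with an adjusted p under 0.05 between the classes (edgeR, linear axis from 0) with all 18 punches and with each punch left out. Grey is higher and yellow is lower in the high-score class, and the bar without NT female replicate 1 reaches 823 genes against 63 with all punches.

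Among fibrillar collagens and other matrix genes, 7 of 32 tested were higher in the high-score class and 0 were lower, and the median log2 difference was 0.37, against 0.02 over all genes tested. With title prefix as a block 0 of the 32 were called (median 0.37), and with sex and rearing terms 0 were called (median 0.26). Col1a1 (chr10:82745801-82762790 in rn6) had 58.3 to 94.9 CPM (median 70.9) in the high-score and 16.95 to 47.6 CPM (median 34.3) in the low-score class. The classes did not overlap, and the log2 difference was 1.06 ± 0.16 (SE, adjusted p = 0.0051). Fmod, which codes for the collagen-binding fibromodulin, had 4.54 to 18.4 CPM (median 13.5) against 1.52 to 8.26 CPM (median 2.82), with 8 of 9 high-score punches above every low-score punch (log2 difference 1.51 ± 0.33 SE, adjusted p = 0.043).

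The other matrix genes called were Efemp1, an elastic fibre protein whose classes did not overlap (13.7 to 23.1 against 9.48 to 13.4 CPM), Loxl1, which crosslinks elastin, Pcolce and PCOLCE2, enhancers of procollagen cleavage, and Postn, which codes for periostin. Their log2 differences lay between 0.69 for Efemp1 and 1.76 for Postn. Sparc, which codes for osteonectin and is the list member with the most counts per kilobase, was not called and had a median of 2189 CPM in the high-score and 2152 CPM in the low-score class (log2 difference -0.01 ± 0.15 SE), and Col18a1, a collagen of basement membranes, had 57.1 and 70.9 CPM (log2 difference -0.28 ± 0.15 SE).

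Of the meningeal signals and retinoid genes, 5 of 33 tested were higher and 0 lower, with a median log2 difference of 0.51 and 31 positive. With title prefix as a block 0 were called (median 0.51), and with sex and rearing terms 0 were called, 15 were positive and the median was -0.02. Igf2, the insulin-like growth factor, had 142 to 605 CPM (median 338) in the high-score and 86.6 to 200 CPM (median 102) in the low-score class (log2 difference 1.48 ± 0.23 SE, adjusted p = 0.0055). The lowest high-score value of Igf2 belonged to the 1 female of that class, and the 8 males lay above every low-score punch. Igfbp2, which binds insulin-like growth factors, had 53.3 to 310 CPM (median 131) against 16.8 to 54.6 CPM (median 34.6), and 8 of 9 lay above every low-score punch (log2 difference 1.79 ± 0.32 SE, adjusted p = 0.013).

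Aldh1a2, the main enzyme of retinoic acid synthesis in the meninges, had 15.9 to 21.5 CPM (median 18.5) in the high-score and 6.27 to 15.8 CPM (median 8.80) in the low-score class. The classes did not overlap, although the adjusted p of 0.049 lay close to the threshold (log2 difference 0.83 ± 0.19 SE). Crabp2, which carries retinoic acid to its nuclear receptors, had 6.05 to 19.3 CPM (median 11.5) against 3.20 to 7.63 CPM (median 5.01), with a log2 difference of 1.18 ± 0.20 (SE, adjusted p = 0.010). Igfbp4 was also called (log2 difference 2.00 ± 0.44 SE, adjusted p = 0.049). In the high-score class NT male replicate 6 held 21.6 CPM of it, where the next highest punch of that class held 6.81. Of the middle punches NT male replicate 3 held 19.5 CPM, LB male replicate 2 17.3 CPM and LB male replicate 5 11.3 CPM. The other middle punches held 0.796 to 4.39 CPM. Ptgds, the prostaglandin D2 synthase of the arachnoid, had medians of 1163 and 682 CPM and was not called (log2 difference 0.76 ± 0.19 SE, adjusted p = 0.072).

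Of the transporters and junction genes of the meninges, 2 of 23 tested were higher and 0 lower, with a median log2 difference of 0.19. None was called (0 by limma-voom and 0 by edgeR) under the prefix block or with sex and rearing terms (medians 0.12 and 0.28). Gjb2 (chr15:37377314-37383289 in rn6), the connexin 26 of meningeal gap junctions, had the lowest adjusted p of all genes. It had 14.9 to 23.9 CPM (median 17.5) in the high-score and 6.88 to 11.7 CPM (median 8.96) in the low-score class (log2 difference 1.01 ± 0.13 SE, adjusted p = 0.0019). The organic cation transporter gene Slc22a2 was the other one called, at low level (medians 0.902 and 0.467 CPM, log2 difference 1.88 ± 0.41 SE, adjusted p = 0.045). Slc26a2, a sulfate transporter, had medians of 7.14 and 16.1 CPM and was not called (log2 difference -0.86 ± 0.34 SE, adjusted p = 0.19).

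Kcnj13 and Aqp1, which the choroid plexus also expresses, had the largest log2 differences of that list (2.88 ± 0.79 and 2.63 ± 0.73 SE, adjusted p = 0.081 and 0.083). Their highest values, 37.7 and 25.8 CPM, stood in the high-score class, while their medians there were 1.82 and 1.31 CPM. NT male replicate 5 held 37.7 CPM of Kcnj13 and also 6340 CPM of Ttr, the transthyretin gene that defines choroid plexus, whose median was 21.7 CPM in the high-score and 15.1 CPM in the low-score class. It also had the highest Igf2 and Igfbp2 of the class, at 605 and 310 CPM. The part of choroid plexus in these values was not tested, and without this punch 27 genes were called.

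Of the meningeal transcription factors, 2 of 19 tested were higher and 0 lower, with a median log2 difference of 0.44. The prefix block and the sex and rearing terms each left 0 called (medians 0.45 and 0.04). Osr1, a zinc finger factor of mesenchyme, had 2.74 to 5.92 CPM (median 3.40) in the high-score and 1.01 to 2.17 CPM (median 1.67) in the low-score class. The classes did not overlap (log2 difference 1.27 ± 0.20 SE, adjusted p = 0.0055). Zfhx4 was called as well (log2 difference 3.32 ± 0.67 SE, adjusted p = 0.033), and its highest value, 51.2 CPM, belonged to NT male replicate 7, where genes of the deep nuclei were also highest. Tbx18 and Foxd1, factors of pial fibroblasts, had log2 differences of 0.75 ± 0.17 and 0.95 ± 0.23 (SE) and were not called (adjusted p = 0.052 and 0.064).

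Of the arachnoid barrier genes 1 of 11 tested was higher, the keratin gene Krt8 (1.88 to 16.2 against 0.706 to 3.03 CPM, log2 difference 2.13 ± 0.46 SE, adjusted p = 0.043), with a median log2 difference of 0.88 over the list. With title prefix as a block or with sex and rearing terms 0 were called (medians 0.98 and 0.39). Cdh1, the E-cadherin of the barrier, had a median of 3.53 CPM in the high-score and 0.796 CPM in the low-score class and was not called (log2 difference 1.15 ± 0.53 SE, adjusted p = 0.25). Itgb4, an integrin of epithelial cells, had 4.15 and 0.796 CPM (log2 difference 1.41 ± 0.46 SE, adjusted p = 0.14). Within the low-score class both genes spread widely, up to 6.12 and 5.55 CPM. Over the 5 meningeal lists together 17 of 118 genes tested were higher, 0 were lower and 98 had a positive log2 difference, against 53.3% positive over all genes tested. With sex and rearing terms 0 were called and 74 were positive (median 0.19).

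**Figure D3:**
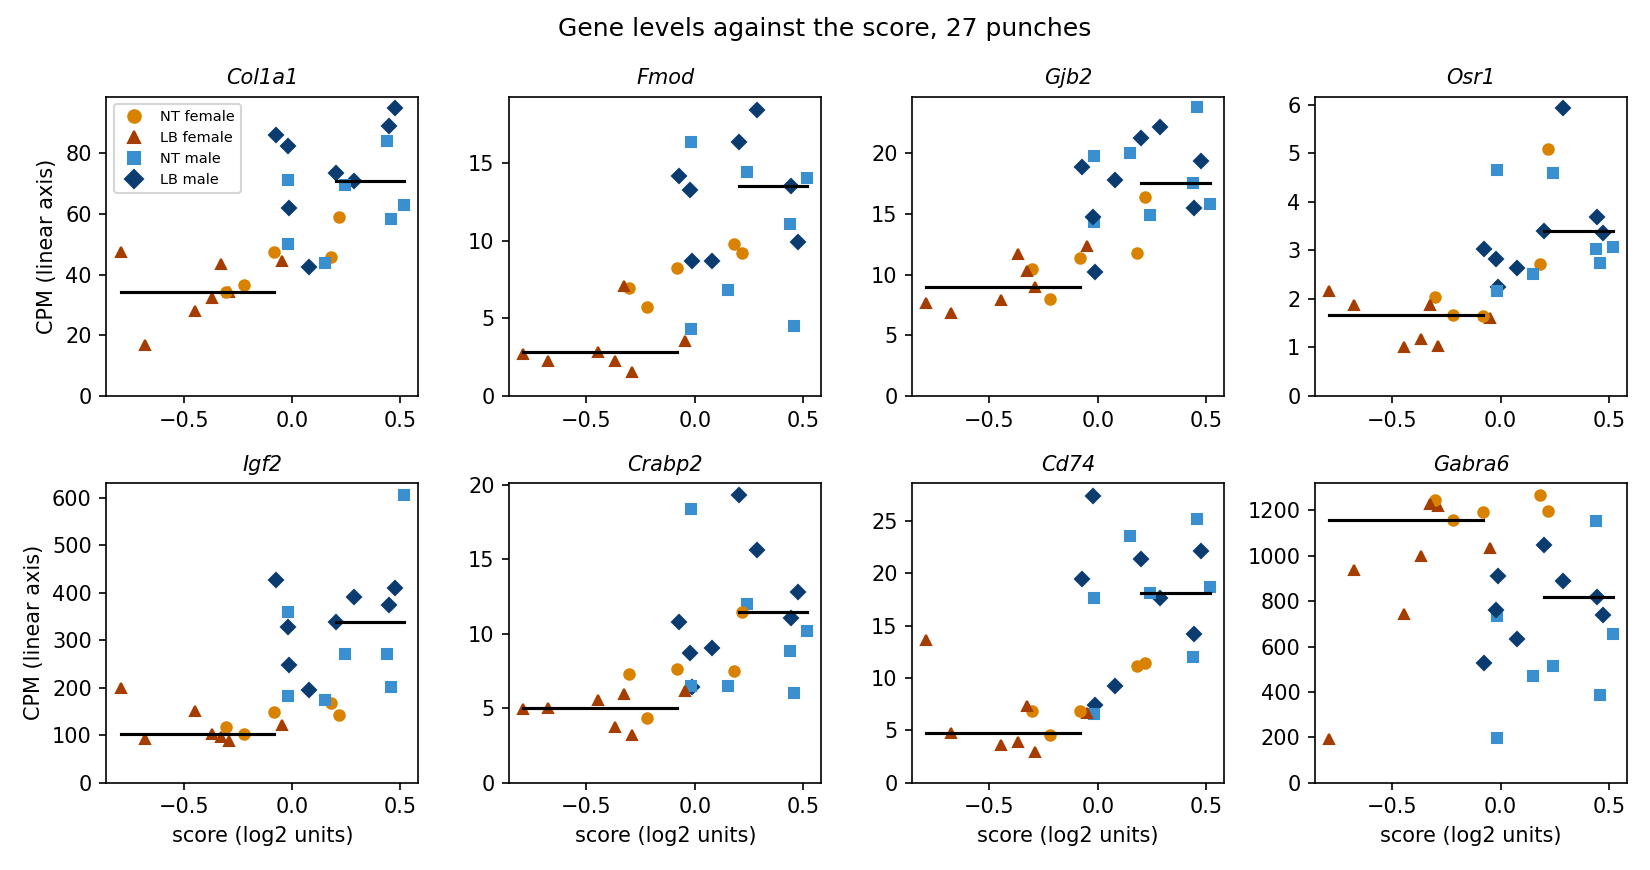
CPM of 8 genes (linear axes from 0) against the score in the 27 punches, coloured and shaped by group, with black lines at the medians of the high-score and low-score classes. Gjb2 lay at or above 14.9 CPM in every high-score punch and at or below 11.7 CPM in every low-score punch, and Gabra6 of granule cells shows the opposite order of medians, 819 and 1160 CPM, without a call.

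Genes of border macrophages and of antigen presentation gave the largest share of calls. Of 13 tested, 6 were higher and 0 lower, with a median log2 difference of 0.78. With title prefix as a block 0 were called (median 0.74), and with sex and rearing terms 0 were called (median 0.17). Cd74, the invariant chain of MHC class II, had 11.4 to 25.2 CPM (median 18.1) in the high-score and 2.93 to 13.7 CPM (median 4.76) in the low-score class, with 7 of 9 above every low-score punch (log2 difference 1.59 ± 0.25 SE, adjusted p = 0.0055). The class II chains RT1-Da, RT1-Ba and RT1-Db1 were higher by log2 differences of 1.58 ± 0.29, 1.44 ± 0.27 and 1.20 ± 0.21 (SE, adjusted p = 0.017, 0.020 and 0.013). They belong to a gene family, and how reads that align to several of its members were counted is not given in the sources used here.

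Mrc1, the mannose receptor of border macrophages, had 4.66 to 10.1 CPM (median 7.61) against 3.40 to 5.13 CPM (median 4.53), with a log2 difference of 0.78 ± 0.14 (SE, adjusted p = 0.015). F13a1, a transglutaminase of the same cells, was the sixth gene called (log2 difference 1.16 ± 0.26 SE, adjusted p = 0.049). Lyve1 and Cd163, further receptors of these cells, had log2 differences of 0.60 ± 0.20 and 0.30 ± 0.24 (SE) and were not called (adjusted p = 0.14 and 0.54). Ednrb, the list member with the most counts per kilobase, was not called. Its medians were 73.2 CPM in the high-score and 115 CPM in the low-score class. Of the 13 genes 12 had a positive log2 difference, while the summed levels of the list had medians of 125.6 and 141 CPM. Microglia, the macrophages inside the brain tissue, had 0 of 15 genes called and a median log2 difference of 0.34, and Ctss, a lysosomal protease of these cells, had medians of 206 and 129 CPM (log2 difference 0.46 ± 0.17 SE, adjusted p = 0.19). All 15 microglia genes had a positive log2 difference. With sex and rearing terms, where the estimate rests on NT female replicate 1, 0 of 15 did (median -0.43). Slopes on the score over all 27 punches with the same terms were positive for 4 of 15 (median -0.41 per class gap). Within females 3 of 15 had a positive slope (median -0.61), and within males 6 of 15 (median -0.08).

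The 3 class II genes are shown with the 120 bases before their start, because they moved together and their promoters share a known element. The sequences come from RefSeq (GRCr8) and are printed 5′ to 3′ on the strand of the gene. Capitals mark CTGATTGG, the Y box that the factor NF-Y binds. It begins 52 bases before the start of RT1-Da, 46 before that of RT1-Ba and 83 before that of RT1-Db1. On either strand, 3.19% of 33469 promoters held it within the 250 bases before the start. A match describes the letters and is not a measured site.
RT1-Da, chr20:4515295-4515414, plus strand: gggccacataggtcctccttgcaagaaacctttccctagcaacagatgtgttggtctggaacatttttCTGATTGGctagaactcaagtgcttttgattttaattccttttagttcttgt
RT1-Ba, chr20:4576937-4577056, plus strand: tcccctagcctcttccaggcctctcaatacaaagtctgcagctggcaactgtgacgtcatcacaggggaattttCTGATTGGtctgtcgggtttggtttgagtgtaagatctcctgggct
RT1-Db1, chr20:4560163-4560282, minus strand: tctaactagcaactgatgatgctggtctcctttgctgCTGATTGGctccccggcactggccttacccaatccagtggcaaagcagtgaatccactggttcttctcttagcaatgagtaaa

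Of the genes called, 38 stood in none of the marker lists, and 7 of these did not overlap between the classes. Over all 63 genes called, in or outside the lists, 12 did not overlap. Anxa1, an annexin of macrophages and epithelia, had 4.29 to 8.54 CPM in the high-score and 1.66 to 3.60 CPM in the low-score class (log2 difference 1.30 ± 0.17 SE, adjusted p = 0.0021). Slc2a12, a glucose transporter, had 4.98 to 17.3 against 1.30 to 4.16 CPM (log2 difference 1.56 ± 0.25 SE, adjusted p = 0.0070). Il18, an interleukin of the interleukin 1 family, had 2.14 to 8.68 against 1.27 to 2.06 CPM (log2 difference 1.33 ± 0.23 SE, adjusted p = 0.011).

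Ctsc, a protease that activates proteases of immune cells, had 5.95 to 11.9 against 3.50 to 5.49 CPM (log2 difference 0.83 ± 0.15 SE, adjusted p = 0.013). Gstm2, a glutathione transferase, Dcdc2, a microtubule-binding protein, and MGC108823 were the other 3, with log2 differences of 1.23 ± 0.21, 2.07 ± 0.33 and 1.48 ± 0.32 (SE, adjusted p = 0.0087, 0.0067 and 0.043). Lyz2, the lysozyme of macrophages, and Anxa2 were named after their values were seen and overlapped between the classes (log2 differences 1.02 ± 0.15 and 0.82 ± 0.14 SE, adjusted p = 0.0051 and 0.0070).

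The IP is labelled as the tissue, and its projection neurons express the vesicular glutamate transporter Slc17a6, which had 0.475 to 380 CPM (median 3.92) in the high-score and 1.04 to 3.26 CPM (median 2.495) in the low-score class. In contrast, Gabra6, which defines granule cells of the cerebellar cortex, had 388 to 1196 CPM and 193 to 1246 CPM (log2 difference -0.26 ± 0.27 SE, adjusted p = 0.65). The punches of the low-score class held little of the defining neuronal marker of the labelled nucleus, and 3 of the 9 high-score punches held over 20 CPM of it. These were NT male replicates 5 and 7 and LB male replicate 1, with 30.1, 380 and 21.6 CPM.

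Among the deep nucleus neuron genes 1 of 14 tested was called, the transcription factor Meis2 (0.107 to 99.7 against 0.0543 to 3.48 CPM, log2 difference 4.72 ± 1.00 SE, adjusted p = 0.041). The neuropeptide genes Tac1 and Pdyn, named after their values were seen, were called with log2 differences of 3.83 ± 0.81 and 3.64 ± 0.80 (SE, adjusted p = 0.041 and 0.048). NT male replicate 7 was highest for all 3, with 99.7, 39.2 and 30.1 CPM. Over the deep nucleus list 9 of 14 genes had a positive log2 difference (median 0.78). Its summed levels had medians of 3478 CPM in the high-score and 3829 CPM in the low-score class. With sex and rearing terms, where the estimate rests on NT female replicate 1, 3 of 14 were positive (median -0.67). Within males 11 of 14 had a positive score slope (median 0.59 per class gap), and within females 2 of 14 (median -0.16). With a term for the level of deep nucleus minus granule cell genes, 11 genes were called in place of 63, 6 of them in the meningeal lists. The part of nucleus placement in the other calls was not tested.

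In the other cell lists no gene was called by edgeR but for Vim of the glia limitans (medians 128 and 87.4 CPM, log2 difference 0.52 ± 0.11 SE, adjusted p = 0.034). The granule cell list had 0 of 14 genes with a positive log2 difference (median -0.27), the Purkinje cell list 1 of 14 (median -0.25) and the oligodendrocyte list 13 of 13 (median 0.47). Red blood cell genes had 4 of 4 positive (median 0.99), with Hbb at medians of 286 and 159 CPM and summed levels of 114 to 562 CPM in the high-score and 86.5 to 226.6 CPM in the low-score class. With sex and rearing terms, where the estimate rests on NT female replicate 1, these directions turned. Positive were 10 of 14 granule cell genes (median 0.12) and 9 of 14 Purkinje cell genes (median 0.06). Of the oligodendrocyte genes 0 of 13 were positive (median -0.76), and of the red blood cell genes 0 of 4 (median -0.33). Score slopes over all 27 punches with the same terms were positive for 12 of 14 granule cell and 10 of 14 Purkinje cell genes. Their medians were 0.28 and 0.48 per class gap. These slopes were positive for 4 of 13 oligodendrocyte genes (median -0.33) and 3 of 4 red blood cell genes (median 0.11). Endothelial genes had 9 of 22 positive (median -0.10) and smooth muscle genes 15 of 19 (median 0.16). The part of blood and white matter in the other calls was not tested.

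Of the endocannabinoid and prostaglandin genes, which the study addressed, 0 of 21 tested were called between the classes by edgeR, and 10 had a positive log2 difference (median -0.01). Cnr1, the cannabinoid receptor 1, had 423 to 957 CPM (median 677) in the high-score and 211 to 1105 CPM (median 781) in the low-score class (log2 difference -0.22 ± 0.23 SE, adjusted p = 0.65). Ptgds, given above, and the prostaglandin E synthase gene Ptges had the lowest adjusted p of the list. Ptges had a log2 difference of 0.81 ± 0.22 (SE, medians 1.48 and 0.905 CPM, adjusted p = 0.081), and 8 of 9 high-score punches lay above every low-score punch.

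**Figure D4:**
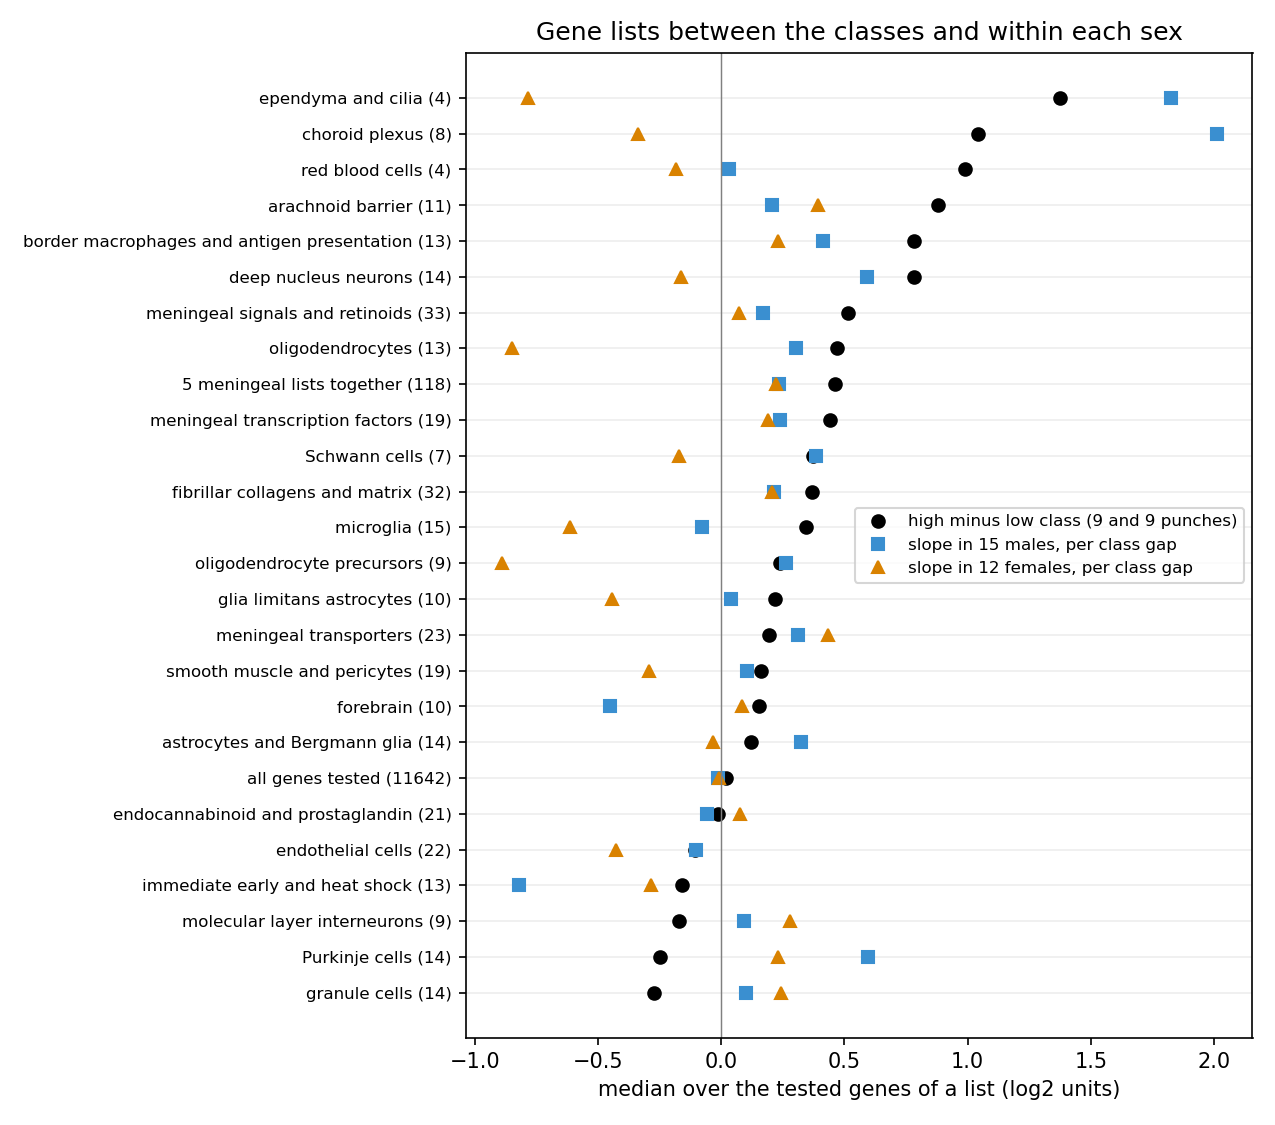
Median over the tested genes of each list (number in parentheses) of the log2 difference between the classes (black) and of the score slope within the 15 males (blue squares) and within the 12 females (orange triangles), slopes scaled to the class gap. Oligodendrocyte genes had a median of 0.47 between the classes, 0.30 within males and -0.85 within females, while the 5 meningeal lists together had 0.46, 0.24 and 0.22.

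Because the classes split by sex, the slope of each gene on the score was fitted within each sex, a choice made after the classes were seen. Slopes are given per class gap, so that they share the scale of the log2 differences, and they rest in part on the same punches as the classes. Within the 15 males 0 of 11642 genes passed the threshold (0%, edgeR) and 675 had an unadjusted p under 0.05. Within the 12 females 0 passed (0%, edgeR) and 2472 had an unadjusted p under 0.05. These slopes carry rearing as well, since the score of LB females lay 0.380 below that of NT females. With a rearing term 0 genes passed in either sex (edgeR), and 638 in females and 436 in males had an unadjusted p under 0.05. The difference between the slopes of the sexes passed for 0 genes (edgeR interaction term, 303 with an unadjusted p under 0.05).

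Gjb2 had a slope of 0.31 ± 0.28 (SE) in males and 0.77 ± 0.18 in females (adjusted p = 0.74 and 0.18). Col1a1 had 0.31 ± 0.31 in males and 0.61 ± 0.24 in females (adjusted p = 0.76 and 0.21), against 1.06 between the classes. Ctsc had slopes of 0.88 ± 0.26 and 0.68 ± 0.16 (adjusted p = 0.72 and 0.18), close to its difference of 0.83 between the classes. Igf2 had 0.58 ± 0.42 in males and 0.07 ± 0.24 in females (adjusted p = 0.73 and 0.85), and Cd74 had 0.40 ± 0.51 and 0.28 ± 0.39 (adjusted p = 0.81 and 0.65), against 1.48 and 1.59 between the classes. These 5 genes had a positive slope within each sex, none of which passed the threshold, and for Col1a1, Gjb2, Igf2 and Cd74 both slopes were smaller than the difference between the classes. With sex and rearing as terms between the classes, where the estimate rests on NT female replicate 1, Zfhx4, F13a1, Pdyn and Meis2 turned to log2 differences of -1.33, -0.20, -2.14 and -3.89.

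**Figure D5:**
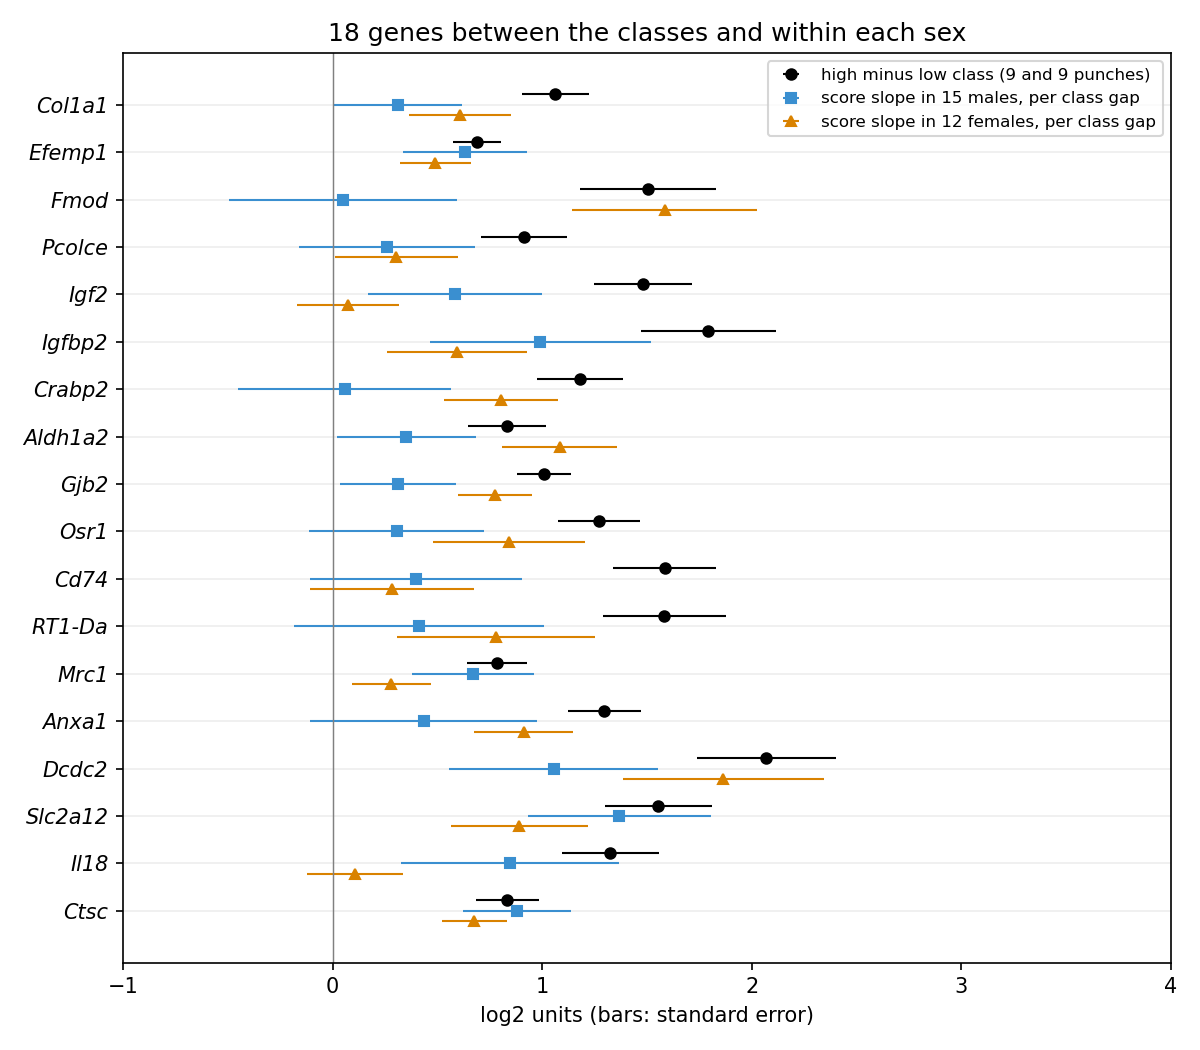
Log2 difference between the classes (black circles) and score slope per class gap within 15 males (blue squares) and 12 females (orange triangles) for 18 of the genes called, with standard errors. For Igf2 the 3 values were 1.48, 0.58 and 0.07, and for Ctsc 0.83, 0.88 and 0.68.

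The 9 punches with middle scores, 7 from males and 2 from females, take no part in the comparison of the classes. Their scores ran from -0.0747 to 0.182. Within them 0 of 11642 genes had a slope that passed (0%, edgeR), 142 had an unadjusted p under 0.05, and every gene named here had an adjusted p of at least 0.998. Of the 63 genes called between the classes 28 had a positive slope there, against 47.7% of all genes tested, and 21 to 40 did so with 1 punch left out. Ctsc had a slope of 0.92 ± 0.91 per class gap and Col1a1 one of -2.30 ± 0.91 (SE).

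The labels of the study give groups that the rule did not use. In the fit of the 4 groups, 12107 genes were tested. The set counted here is Dcn, Lum, Col3a1 and Slc6a13 with the lists of matrix, transporters, signals and transcription factors. The score gene Col1a2 fell below the count filter and was not tested. Between NT males and NT females 26 of these genes were called, 23 higher and 3 lower in males, where 15.2% of all genes were called. Of 32 matrix genes tested, 6 were higher and 1 lower, and of 23 transporters 1 and 1. Of 35 signal genes 12 were higher and 1 lower, and of 20 transcription factors 3 and 0. Between LB males and LB females 12 were called, all higher in males, where 0.248% of all genes were called. By list these were 4 of 32, 1 of 23, 5 of 35 and 1 of 20, besides the score genes. Other cell lists differed by sex in NT rats as well. In males 13 of 13 oligodendrocyte, 9 of 15 microglia and 8 of 13 choroid plexus genes were higher. Of the deep nucleus genes 8 of 15 were higher and 2 lower. Granule and Purkinje cell genes were lower for 7 of 14 each, and 1 of 22 endothelial genes was higher. In LB rats 0 genes of these cell lists were called by sex. The part of tissue composition in the calls was not tested. With title prefix as a block the 26 and 12 became 0 and 2.

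Between LB and NT rats 0 of the set were called by edgeR in females (22 with an unadjusted p under 0.05, 0.00826% of all genes called) and 0 in males (13 with an unadjusted p under 0.05, 0% of all genes called), and DESeq2 called 0 of the set in both. Itgb4 of the arachnoid list was the 1 gene called between LB and NT females, with 0.543 to 1.38 CPM in the 7 LB and 3.15 to 5.69 CPM in the 5 NT females. The groups did not overlap, and the log2 difference was -2.55 ± 0.33 (SE, edgeR adjusted p = 2.64e-04). That fit had no term for title prefix, and LB and NT females shared no prefix.

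Of the score genes, Dcn was higher in NT males than in NT females (20.7 ± 5.10 CPM, SD, n = 7, against 11.8 ± 2.46, n = 5, log2 difference 0.81 ± 0.20 SE, edgeR adjusted p = 0.014). Col3a1 was higher in LB males than in LB females (37.6 ± 7.07 CPM, n = 8, against 18.4 ± 4.34, n = 7, log2 difference 1.03 ± 0.19 SE, edgeR adjusted p = 0.0074). The other contrasts by sex of Dcn, Col3a1, Lum and Slc6a13 did not pass the threshold (edgeR). For these, means alone are given, males first. Slc6a13 averaged 12.1 and 12.3 CPM in NT rats, and 13.5 and 8.56 CPM in LB rats. Lum averaged 8.06 and 5.12 CPM in NT rats, and 7.60 and 3.98 CPM in LB rats. Dcn averaged 15.3 and 10.5 CPM in LB rats, and Col3a1 35.8 and 26.3 CPM in NT rats. Gjb2, Igf2, Igfbp2 and PCOLCE2 were called in both sex comparisons. Igf2 averaged 295 ± 151 CPM in NT males and 135 ± 26.01 CPM in NT females (log2 difference 1.13 ± 0.27 SE, adjusted p = 0.013), and 339 ± 81.0 CPM in LB males and 121 ± 41.0 CPM in LB females (log2 difference 1.48 ± 0.24 SE, adjusted p = 0.0033). Aldh1a2 was higher in LB males than in LB females (log2 difference 0.94 ± 0.20 SE, adjusted p = 0.038), and its NT difference was 0.02 ± 0.23 (SE, adjusted p = 0.97). Whether these differences by sex differed between NT and LB rats was not tested.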

How the data were processed

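The authors aligned reads of poly(A) RNA libraries (KAPA mRNA HyperPrep) to the rat genome rn6 and deposited raw counts per gene for 17321 genes in 27 punches. The submitters' processing notes name STAR 2.5.2b and featureCounts of Subread 1.5.1. The annotation release, strand setting and treatment of multi-mapped reads are not given in the sources used here. Punches with low RNA integrity had been removed by the study. Whether animals with the same title prefix shared a litter or cage is not stated, so p-values measure the spread between these samples. No 2 libraries of a group had identical counts (80 pairs, lowest chi-square per degree of freedom 8.77).

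From the counts, CPM for the score used library totals and a pseudocount of 0.5. CPM in the text are TMM-normalised over 27 punches. Low genes were removed with filterByExpr, set to a count of at least 10 and a total of at least 15. Tests were quasi-likelihood tests of edgeR 4.0.16 (R 4.3.3, robust, prior count 0.125), without covariates between the classes, with Benjamini-Hochberg adjustment and a threshold of 0.05, and were tested on simulated data. The standard error was derived from the F statistic. Score means were compared by exact permutation. Alternatives used DESeq2 1.42.0, limma-voom (limma 3.58.1), other normalisations, filters, terms, scores and samples. Named genes were the 5 score genes, the members of each list with the largest differences (8 for meningeal lists, 4 for others), the member with the most counts per kilobase, Cnr1, and called genes outside the lists without overlap and with at least 1 CPM. This gave 146 genes, from which the text takes those shown. Efemp1, Col18a1, Mrc1, F13a1, Lyve1, Cd163, Gabra6, Tac1, Pdyn, Pank4, Lyz2 and Anxa2 fall outside this rule and were chosen after their values were seen. The members, lists and tests were chosen with earlier results of these data known.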

Additional observations from a re-analysis of the deposited data

Results flagged for a closer look

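In 153 sets of values (the score, the deep nucleus minus granule cell level, the 5 score genes and 36 named genes that were called, by class, and the score and its genes by label group), 23 had 1 punch farther from the rest than Dixon's 95% limit. Each flag was the highest value of its set. The limit is set for normally distributed values, while CPM entered without a log and the sets share punches. The share that chance would flag here was therefore not known.

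In the high-score class, NT male replicate 7 stood apart at 3.53 log2 units for the deep nucleus minus granule cell level (next 1.05), 51.2 CPM for Zfhx4 (next 17.7), 7.78 CPM for F13a1 (next 3.58), 6.83 CPM for Dcdc2 (next 4.21), 5.04 CPM for MGC108823 (next 2.71) and 39.2 CPM for Tac1 (next 9.92). NT male replicate 5 stood apart at 310.3 CPM for Igfbp2 (next 143) and 17.3 CPM for Slc2a12 (next 9.74), and NT male replicate 6 at 21.6 CPM for Igfbp4 (next 6.81).

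In the low-score class, LB female replicate 2 stood apart at 0.160 log2 units for the deep nucleus minus granule cell level (next -0.502), 2.80 CPM for Igfbp4 (next 1.80), 3.03 CPM for Krt8 (next 1.48) and 13.7 CPM for Cd74 (next 7.27), and LB female replicate 4 at 3.48 CPM for Meis2 (next 1.73). LB female replicate 2 also had the lowest score of the series.

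In the middle class, NT male replicate 3 stood apart at 18.4 CPM for Crabp2 (next 10.8) and 4.66 CPM for Osr1 (next 3.02), LB male replicate 5 at 24.1 CPM for Zfhx4 (next 9.71), NT male replicate 1 at 17.4 CPM for Anxa1 (next 6.38) and NT female replicate 2 at 0.259 CPM for Col1a2 (next 0.0867).

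By label group, Slc6a13 was highest in NT male replicate 3 at 16.7 CPM (next 12.3). Col1a2 was highest at 0.259 CPM in NT female replicate 2, at 0.206 CPM in NT male replicate 2 and at 0.0571 CPM in LB female replicate 2, where the other 6 LB females had 0 counts, and these values rest on 1 to 4 counts.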

How the results depend on the processing

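Between the classes, where edgeR called 63 genes, DESeq2 called 452, limma-voom 40, library size without TMM 40 and a minimum of 10 counts in every punch 37. The term for the deep nucleus minus granule cell level left 11. Called genes numbered 0 with sex and rearing terms, with title prefix as a block (895 with an unadjusted p under 0.05), between the classes in females alone (1 against 9 punches, 91), with the score without Dcn or Col3a1, with SD-scaled score genes (854), and with the score as a linear term in males, in females, or in all punches with sex and rearing terms (2350). The score without Lum gave 181 genes, and a score from TMM CPM, whose classes were 9 males and 9 females, gave 1212 (677 higher, 535 lower). With 1 punch left out the number ran from 21 (without LB male replicate 8) to 823 (without NT female replicate 1). It moved by over 1.5 times upward also without LB male replicate 6 (155), NT male replicate 2 (125) and LB female replicate 2 (121), and downward without LB male replicate 3 (36), NT female replicates 3 and 4 (25 and 27), NT male replicates 5, 6 and 7 (27, 32 and 30) and LB female replicates 1, 3, 4, 5 and 6 (27, 29, 36, 23 and 23). The cause was not tested.

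Directions turned for named genes as follows, in log2 units. With sex and rearing terms Zfhx4 had -1.33, F13a1 -0.20, Pdyn -2.14 and Meis2 -3.89, and between the classes in females alone -0.76, -0.058, -1.38 and -3.05. Both sets of values rest on NT female replicate 1, the single female of the high-score class, against 9 low-score females. With the score as a linear term and sex and rearing terms Igfbp4 had -0.98, RT1-Db1 -0.031, Lyz2 -0.16 and Meis2 -0.46. For slopes over the 15 males Igfbp4 had -1.89, RT1-Db1 -0.10, Gstm2 -0.012, Lyz2 -0.097 and Pdyn -0.65, and for slopes over the 12 females Lyz2 had -0.091, Tac1 -0.28 and Meis2 -0.62. Without Dcn in the score Igfbp4 had -0.029.

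Of the meningeal genes called by sex, 26 in NT and 12 in LB rats, 0 and 2 were called with title prefix as a block, and DESeq2 called 29 in LB rats. With 1 punch left out these counts ran from 11 (without NT female replicate 1 or 4) to 41 (without NT male replicate 4) and from 6 (without LB female replicate 6 or LB male replicate 8) to 35 (without LB female replicate 2). Between LB and NT females they ran from 0 to 2 (without LB female replicate 4), and between LB and NT males from 0 to 0, as did the slopes in the middle punches. A comparison within males could not be run, since no male was in the low-score class. No paired analysis was possible because the replicate numbers follow the order of the samples and pair none of them across groups. Depth limits genes near 1 CPM, such as Slc22a2, and Col1a2.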
